A study of Mus musculus with 6 samples.

Results

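The SR proteins and the heterogeneous nuclear ribonucleoproteins (hnRNPs) are the large families of nuclear RNA-binding proteins that decide which exons a transcript keeps. All protein coding genes of the expression table whose symbol begins with *Srsf* (SR genes) or *Hnrnp* (hnRNP genes) were followed here in hearts with and without the long non-coding RNA *Trdn-as*. There were 31 such genes among 14970 protein coding genes and 21776 genes in all, of which 11 were SR genes and 20 hnRNP genes. *Trdn-as* is transcribed antisense to *Trdn*, the gene of the calcium-release protein triadin.

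Total RNA of whole mouse hearts was sequenced from 3 *Trdn-as* KO and 3 WT animals, with 1 strand-specific library per heart and single-end reads of 75 bases. KO animals descended from ES cells in which a polyA cassette had been placed in the first exon of *Trdn-as*, and the cassette was therefore carried by all cells of the heart, not by cardiomyocytes alone. WT hearts carried no such cassette. The labels name the tissue and genotype and give no age or sex. The deposited value of a gene is its normalised read count, that is, reads in exons divided by the size factor of the library and rounded to a whole number. Values summed to between 3133225 and 3253754 per library, and the reads behind them were estimated at 2.59 M in WT 1 and 3.62 M in KO 1, with the other hearts in between. *Trdn-as*, listed as AC157017.2, stood at 1, 0 and 1 in the KO hearts and at 690, 773 and 688 in the WT hearts. The 7 cardiomyocyte marker genes summed to between 19920 and 21261 in KO and to between 20750 and 25442 in WT. In whole-heart RNA, fewer cells of a type and less RNA per cell cannot be told apart. The marker sum also fell as the estimated size factor rose, from 25442 at 0.795 in WT 1 to 19920 at 1.149 in KO 1. Duplicate reads had been removed before counting. The part of library depth in these sums was not tested.

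SR proteins carry RNA recognition motifs and a tail rich in arginine and serine. Bound to exonic enhancers, they mostly recruit the spliceosome, and kinases of the SRPK and CLK families set their activity and location by phosphorylating the tail. hnRNP proteins bind nascent transcripts more broadly and often repress exons, so that the balance of both families sets the outcome at many exons. Many members also limit their own level by including an exon with an early stop codon, which sends the transcript to nonsense-mediated decay. In the heart the splicing of calcium handling genes depends on several of them, and *Srsf10* is known to act on the triadin transcript itself.

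The annotation shows where this self-limiting layer could enter the gene-level counts. In GENCODE M21 on GRCm38, 19 of the 31 members have a transcript classed as a target of nonsense-mediated decay (9 SR genes and 10 hnRNP genes), 22 have a retained-intron transcript and 24 have either. For 7 members, 5 of them SR genes, an internal exon lies outside all coding transcripts and carries the stop codon of the decay transcript. Where the annotation used for counting holds these exons, their reads and those of the coding transcript share 1 gene value. Which exons it holds was not tested. The short examples are shown for *Srsf3*, *Srsf7*, *Srsf11*, *Hnrnpl* and *Hnrnpll*, each from the first base of the exon to the stop codon, which is in capitals. The printed stretches lie at chr17:29039454-29039487 (plus strand), chr17:80205054-80205081 (minus), chr3:158024209-158024231 (minus), chr7:28817335-28817393 (plus) and chr17:80044976-80045022 (minus), in that order.
Srsf3: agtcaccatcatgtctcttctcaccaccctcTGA
Srsf7: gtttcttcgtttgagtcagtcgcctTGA
Srsf11: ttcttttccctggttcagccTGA
Hnrnpl: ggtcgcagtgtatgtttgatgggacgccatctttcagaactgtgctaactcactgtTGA
Hnrnpll: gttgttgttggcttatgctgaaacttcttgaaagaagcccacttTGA
The whole exons measure 456, 460, 109, 70 and 83 bases. *Srsf11* holds another such exon of 117 bases, and those of *Srsf4* and *Srsf9* measure 207 and 358 bases. Over the 31 members a median of 27.4% of exonic bases lay outside coding transcripts. The share was 66.9% in *Srsf3*, 60.6% in *Srsf11*, 58.5% in *Srsf5* and 73.3% in *Hnrnpll*. It was 0% in *Hnrnpa0*, *Hnrnpab*, *Hnrnpf*, *Hnrnph2* and *Srsf12*. How reads divided between decay and coding transcripts was not tested, since the table has 1 value per gene.

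None of the members changed between KO and WT hearts at an adjusted p below 0.05 (limma, Benjamini-Hochberg over all genes tested). With a mean of at least 10, 30 of the 31 members were tested, and 0 were called, against 4 of 13753 genes or 0.0291% in the whole table. At an unadjusted p below 0.05 the count was 1 member higher in KO (*Hnrnpa0*) and 0 lower, where 2.94% of all tested genes were higher and 2.80% lower. limma-voom, run as an alternative, also called 0 members and had *Hnrnpa0* alone below 0.05 unadjusted. The KO and WT values of every tested member overlapped: 0 members lay apart with KO higher and 0 with KO lower, against 4.64% and 4.44% of all tested genes.

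The intervals were narrow. Log2 fold changes, on the scale of log2(value + 1), ran from -0.16 to 0.22 over the 30 members with a median of 0.03, and their standard errors from 0.06 to 0.15. All 30 of the 95% intervals lay within a 1.5-fold change in either direction, with a lowest bound of 0.718-fold for *Hnrnpf* and a highest of 1.36-fold for *Srsf9*. The same held for 74.4% of all tested genes and for 99.1% of those with a mean of 100 or more, a level that 28 members reached. The point estimates were above 0 for 23 members and below 0 for 7. That is 76.7% higher, against 50.6% of all tested genes and 46.9% of those with a mean of 100 or more. This tilt moved with single hearts: 16 members were higher without KO 1 or without WT 3, and 26 without KO 2.

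**Figure D1:**
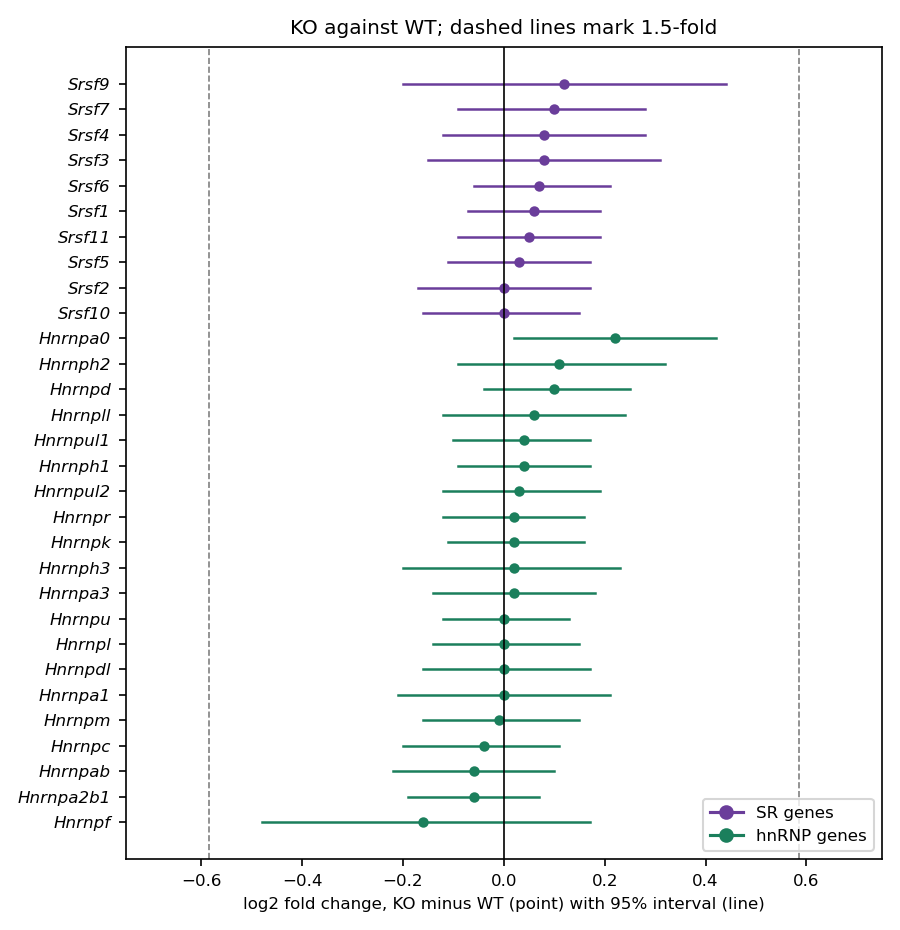
Log2 fold change of KO over WT (x axis, log2 scale) for each of the 30 tested SR and hnRNP genes (y axis), with points for the estimate and lines for the 95% interval. All intervals lie between the dashed lines at 1.5-fold, and that of *Hnrnpa0* alone does not span 0.

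Summed over the family, SR genes reached 3326, 3204 and 3331 in the KO hearts and 3215, 3156 and 3140 in the WT hearts. The means were 3287 ± 71.9 and 3170 ± 39.5 (SD, n = 3 each), a ratio of 1.04. KO 2 lay below WT 1, so the groups overlapped. The hnRNP genes summed to 10025, 8924 and 9865 in KO and to 9693, 9704 and 9165 in WT. Their means of 9605 ± 595 and 9521 ± 308 (SD, n = 3 each) gave a ratio of 1.01, a difference smaller than either SD. Both families together took between 0.387% and 0.424% of the summed values of a library, and the hnRNP sum was between 2.79 and 3.07 times the SR sum in all 6 hearts.

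**Figure D2:**
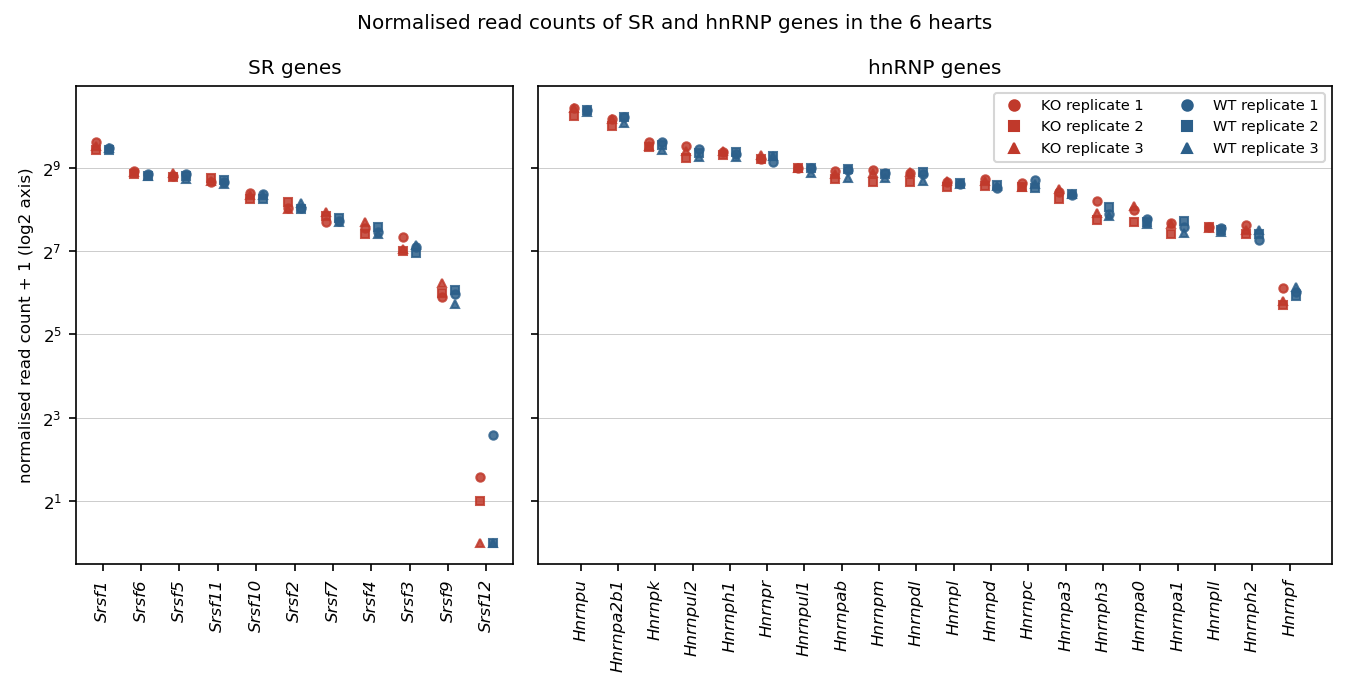
Normalised read count plus 1 (y axis, log2 axis) of the 11 SR genes and 20 hnRNP genes (x axis, ordered by mean) in each heart, with KO in red, WT in blue and a marker shape per replicate. KO and WT points overlap for every tested gene, and *Srsf12* stands at 5 or less in all 6 hearts.

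Among the SR genes *Srsf1* (chromosome 11, 88047373 to 88053755, plus strand) had the largest value per kilobase of annotated exon, 126 over the 6 hearts. It encodes the founding member of the family, which is needed for the postnatal switch in *Camk2d* splicing in the mouse heart. Annotated exon here includes bases outside coding transcripts, at 2.66% in *Srsf1* and 58.5% in *Srsf5*, whose value per kilobase was 112. The rank over coding transcripts alone was not tested. *Srsf1* read 779, 688 and 736 in KO and 706, 689 and 711 in WT. The KO heart with the lowest value lay below all WT hearts and the other two lay above them. The log2 fold change was 0.06 (95% interval -0.07 to 0.19, limma adjusted p = 0.935), and it ranged from 0.02 without KO 1 to 0.11 without KO 2. Its close relative *Srsf9* (chromosome 5, 115327177 to 115333080, plus strand) read 59, 63 and 74 in KO and 62, 66 and 52 in WT. It had the largest SR estimate, 0.12, together with the widest SR interval, -0.20 to 0.44 (limma adjusted p = 0.953). The estimate was 0.02 without WT 3, 0.03 without KO 3 and 0.19 without KO 1 or WT 2, and without WT 3 or KO 3 it was below that of *Srsf3* (0.12).

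*Srsf2*, known for its part in nuclear speckles, read 263, 287 and 255 in KO and 263, 257 and 285 in WT, with the same mean of 268 in both groups. *Srsf3* (chromosome 17, 29032673 to 29043366, plus strand) and *Srsf7* encode small SR proteins that shuttle to the cytoplasm and help to export mRNA. *Srsf3* read 161, 128 and 132 in KO and 135, 122 and 140 in WT. KO 1 was the highest of the 6, the other hearts were interleaved, and the log2 fold change was 0.08 (95% interval -0.15 to 0.31, limma adjusted p = 0.961). It was -0.02 without KO 1. *Srsf7* read 208, 229 and 245 in KO and 211, 221 and 205 in WT, with 0.10 on the log2 scale (95% interval -0.09 to 0.28). For both export factors the interval held 0.

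*Srsf4*, *Srsf5* and *Srsf6* encode the SR proteins with tandem RNA recognition motifs that are most alike. *Srsf6* (chromosome 2, 162931528 to 162937121, plus strand) read 483, 462 and 479 in KO and 463, 448 and 444 in WT. KO 2 lay just below WT 1, and KO 1 and KO 3 lay above all WT hearts. The log2 fold change of 0.07 (95% interval -0.06 to 0.21) had the smallest unadjusted SR p, 0.279 (limma adjusted p = 0.922). *Srsf5* (chromosome 12, 80945504 to 80950507, plus strand) read 445, 440 and 469 in KO and 459, 446 and 421 in WT. The groups were interleaved, at a log2 fold change of 0.03 (95% interval -0.11 to 0.17, limma adjusted p = 0.977). *Srsf4* read 188, 170 and 207 in KO and 174, 189 and 170 in WT, equally interleaved, with 0.08 on the log2 scale.

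*Srsf10* encodes a splicing repressor that turns active upon dephosphorylation and that acts on the triadin transcript in the embryonic heart. Its values were 333, 302 and 323 in KO and 332, 302 and 325 in WT. The sorted values of both groups differed by at most 2 units, and the interval of the KO over WT ratio ran from 0.896 to 1.11. *Srsf11*, whose protein associates with the U2AF splice site factor, read 405, 434 and 411 in KO and 405, 416 and 387 in WT, a log2 fold change of 0.05. *Srsf12*, the paralogue of *Srsf10*, read 2, 1 and 0 in KO and 5, 0 and 0 in WT, below the filter. Apart from the 5 in WT 1, each value was under the 3 reads that a count of 0 allows, equal to 2.61 to 3.77 units by library, so no fold change is given.

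The A/B group of hnRNP proteins binds AG-rich motifs and often represses exons. *Hnrnpa2b1* (chromosome 6, 51460932 to 51469894, minus strand) had the largest value per kilobase of annotated exon of all members, 172, followed by *Hnrnpab* at 167. The kilobases again include bases outside coding transcripts, 63% in *Hnrnpa2b1* and 0% in *Hnrnpab*. *Hnrnpa2b1* read 1146, 1018 and 1159 in KO and 1190, 1184 and 1085 in WT. KO 2 was lowest and the WT hearts spanned the rest, with a log2 fold change of -0.06 (95% interval -0.19 to 0.07, limma adjusted p = 0.944) that became 0.00 without KO 2. *Hnrnpab* (chromosome 11, 51600100 to 51606847, minus strand), which also binds AU-rich elements, read 486, 421 and 459 in KO and 494, 499 and 431 in WT. Its log2 fold change was -0.06 as well (95% interval -0.22 to 0.10, limma adjusted p = 0.953), and it ranged from -0.13 without WT 3 to -0.00 without KO 2.

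*Hnrnpa0* (chromosome 13, 58125879 to 58128556, minus strand), a single-exon relative of *Hnrnpa1*, was the member with the largest estimate. It read 252, 208 and 272 in KO and 218, 206 and 199 in WT. KO 1 and KO 3 lay above all WT hearts, while KO 2 fell among them. The means were 244 ± 32.7 and 208 ± 9.61 (SD, n = 3 each). The fold change was 1.17 (95% interval 1.02 to 1.34) and the log2 fold change 0.22 (SE 0.10). It had an unadjusted p of 0.0308 in limma and did not pass after adjustment over all genes (adjusted p = 0.851, 0.654 to 0.999 over the alternatives). Without KO 1, KO 3, WT 2 or WT 3 the unadjusted p was no longer below 0.05, and the estimate ranged from 0.14 to 0.33 over the hearts left out in turn.

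*Hnrnpa1*, the best studied exon repressor of the group, read 204, 170 and 200 in KO and 190, 211 and 172 in WT. Both means were 191, and the ratio was 1.00 with an interval of 0.867 to 1.16. *Hnrnpa3* read 340, 302 and 360 in KO and 326, 330 and 331 in WT. Its KO hearts spread around the tight WT values without a shift.

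*Hnrnpd* (AUF1) and *Hnrnpdl* encode AU-rich element binding proteins that act on mRNA stability. *Hnrnpd* read 424, 375 and 413 in KO and 362, 384 and 380 in WT, with 2 KO hearts above all WT hearts and a log2 fold change of 0.10 (95% interval -0.04 to 0.25, limma adjusted p = 0.895). *Hnrnpdl* read 467, 405 and 477 against 462, 478 and 407, which came to 0.00 on the log2 scale. *Hnrnpc*, which binds uridine tracts and packages nascent transcripts, read 398, 368 and 372 against 419, 365 and 390. For each of the 3 genes the intervals of the ratio stayed between 0.873 and 1.19.

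The F/H group binds runs of guanines. *Hnrnpf* (chromosome 6, 117900340 to 117925622, plus strand) read 68, 51 and 55 in KO and 64, 60 and 69 in WT. Its means of 58.0 ± 8.89 and 64.3 ± 4.51 (SD, n = 3 each) gave the lowest estimate of all members, -0.16 (95% interval -0.48 to 0.17, limma adjusted p = 0.937). It ranged from -0.27 without KO 1 to -0.07 without KO 2, and without WT 3 it was -0.10, where *Hnrnpab* was lower at -0.13. *Hnrnph2* (chromosome X, 134601179 to 134607060, plus strand) read 195, 169 and 180 in KO and 152, 170 and 181 in WT, a log2 fold change of 0.11 (95% interval -0.09 to 0.32, limma adjusted p = 0.919) that ranged from 0.05 without WT 1 to 0.17 without WT 3. Within the group the estimates thus pointed both ways, and each interval held 0. *Hnrnph1* read 668, 630 and 676 against 648, 668 and 609, and *Hnrnph3* read 292, 213 and 239 against 238, 266 and 227, with log2 fold changes of 0.04 and 0.02.

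*Hnrnpu* (chromosome 1, 178324343 to 178337797, minus strand) encodes a scaffold attachment factor that binds chromatin and RNA and that the mouse heart needs for normal splicing. It read 1381, 1203 and 1389 in KO and 1331, 1327 and 1294 in WT. KO 2 was the lowest heart and KO 1 and KO 3 the highest, so that the means of 1324 ± 105 and 1317 ± 20.3 (SD, n = 3 each) hardly differed. The fold change was 1.00 (95% interval 0.919 to 1.10, limma adjusted p = 0.997). Its relatives *Hnrnpul1*, at 507, 508 and 511 against 513, 505 and 470, and *Hnrnpul2*, at 739, 601 and 671 against 696, 649 and 616, had log2 fold changes of 0.04 and 0.03.

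*Hnrnpk* (chromosome 13, 58391142 to 58403343, minus strand), which binds cytosine-rich stretches through KH domains, read 782, 726 and 734 in KO and 786, 743 and 682 in WT. The groups were interleaved, at a log2 fold change of 0.02 (95% interval -0.11 to 0.16, limma adjusted p = 0.984). *Hnrnpll* (chromosome 17, 80029487 to 80062334, minus strand), a CA-repeat binding protein best known from T cells, read 190, 189 and 187 in KO and 187, 181 and 176 in WT. No KO heart lay below any WT heart, KO 3 and WT 1 were tied, and the log2 fold change was 0.06 (95% interval -0.12 to 0.24, limma adjusted p = 0.963). Its paralogue *Hnrnpl* read 401, 371 and 408 against 387, 399 and 391, which came to 0.00 on the log2 scale. *Hnrnpm*, which binds GU-rich motifs, read 489, 404 and 466 against 470, 461 and 431. *Hnrnpr*, a paralogue of *Syncrip*, read 596, 592 and 637 against 560, 618 and 624. Both had intervals of the ratio between 0.892 and 1.11.

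Single hearts stood apart within the groups. KO 2 was the lowest of the KO hearts in 24 of the 30 tested members (80.0%), where it was lowest in 32.7% of all tested genes and in 35.9% of those with a mean of 100 or more. For hnRNP genes the count was 18 of 20 and for SR genes 6 of 10. KO 2 was also lowest in 13 of 23 SR-related and speckle genes, 13 of 26 hnRNP relatives with other names and 7 of 14 spliceosome subunits, in 4 of 13 kinases, phosphatase and import genes of SR proteins and in 4 of 8 heat and immediate early genes. Among 17 factors of nonsense-mediated decay it was lowest in 7 and highest in 7. Being lowest in KO 2 was thus not limited to the members. WT 3 was the lowest WT heart in 19 of 30 members (63.3%), against 34.9% of all tested genes and 42.4% of those with a mean of 100 or more. The median deviation of the hnRNP genes from the mean of their group was -0.11 on the log2 scale in KO 2 and -0.07 in WT 3, and that of the SR genes was -0.04 in both. These counts describe 2 hearts and carry no test. Without KO 2 the median log2 fold change of the hnRNP genes was 0.07 in place of 0.02, and without KO 1 it was -0.02. The SR median stayed between 0.04 and 0.09 whichever heart was left out.

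**Figure D3:**
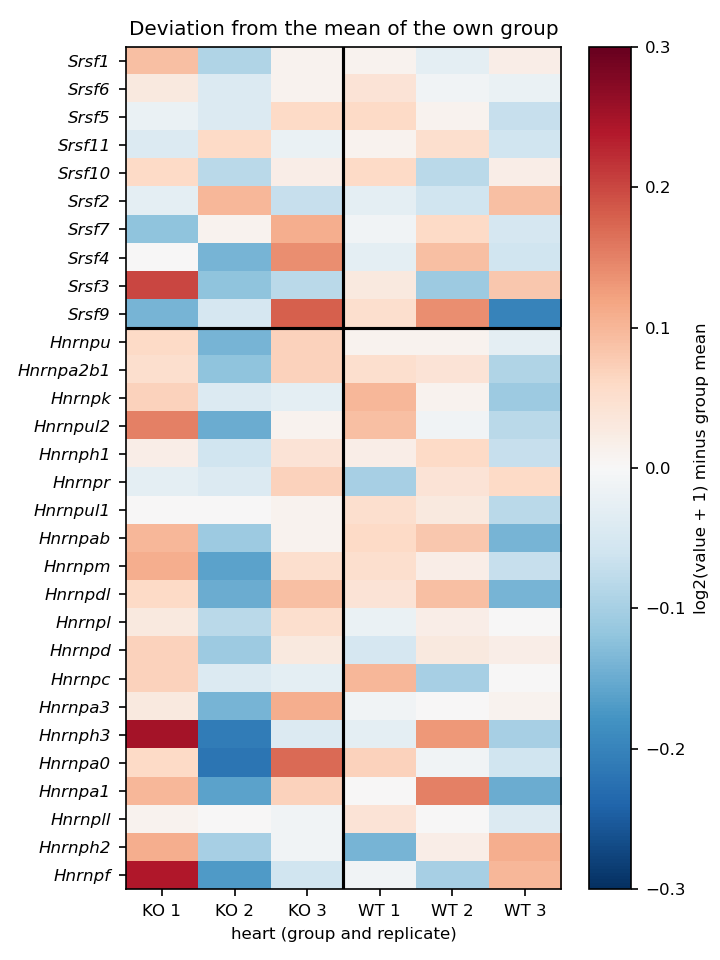
Deviation of log2(value + 1) from the mean of the own group (colour, -0.3 to 0.3) for the 30 tested members (y axis, SR genes above the line, each family ordered by mean) in the 6 hearts (x axis). The columns of KO 2 and WT 3 are mostly blue, with KO 2 lowest of its group in 24 members and WT 3 in 19.

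Other measures also set these hearts apart. The 4 fat marker genes summed to 40 in KO 2 and to between 9 and 17 in the other hearts. Their means were 1.67 to 6.83, below the filter of 10, so these sums rest on few reads. The 5 macrophage and leukocyte markers summed to 694 in KO 2 and to between 447 and 636 elsewhere. The 5 fibroblast markers (3262 to 3674), 5 endothelial markers (3892 to 4516), 5 smooth muscle and pericyte markers (2681 to 3173), 4 atrial markers (434 to 620) and 5 blood markers (151 to 423) gave the ranges in brackets over the 6 hearts. KO 1 was the lowest of the 6 hearts for the cardiomyocyte (19920), fibroblast (3262) and endothelial markers (3892). The same held for its smooth muscle and pericyte (2681), macrophage and leukocyte (447) and fat markers (9). Its atrial (525) and blood sums (304) lay within the range of the other hearts. The estimated size factors were largest in KO 1 (1.149) and WT 3 (1.103), and over the 6 hearts the cardiomyocyte sums fell as the factor rose. The part of library depth in the marker sums was not tested. Among the KO hearts, KO 2 was highest for the atrial (620) and the smooth muscle and pericyte markers (2966), lowest for the blood markers (164) and in the middle for the cardiomyocyte, fibroblast and endothelial markers. In WT 3 the cardiomyocyte (20750), fibroblast (3446), endothelial (3923) and smooth muscle and pericyte markers (2736) were each lowest of the WT hearts, with fibroblast markers close to the 3458 of WT 2. The atrial markers (566) were highest there, those of macrophages and leukocytes (573) and of blood (296) were in the middle, and those of fat (13) were level with WT 2. *Hsph1*, a heat shock chaperone, read 696 in WT 3 against 365 and 421. The part of these measures in the levels of the members was not tested.

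Some members share sequence with processed pseudogenes, which bears on how far their value reflects the gene. Each 75-base window of a member's exons, the length of 1 read, was looked up in all other GENCODE M21 transcripts. No window of 15 members (8 SR and 7 hnRNP genes) occurred in another gene, and no member shared a window with another member. In 6 members more than 50% of the coding windows occurred elsewhere, at 91.9% in *Hnrnpf*, 91.7% in *Hnrnpa3*, 82.2% in *Srsf3*, 75.9% in *Hnrnpa1*, 65.7% in *Srsf10* and 54.1% in *Hnrnpk*. Over all exonic windows the same genes shared 39%, 26.1%, 7.64%, 27%, 8.5% and 11.7%. Reads with more than 1 location were discarded by the authors, so the values of these genes rest on the remaining windows and are uncertain as levels. The first 75 coding bases of *Hnrnpa1* are shown beside those of the 2 copies in the table that are closest to it over this stretch. They lie at chr15:103240514-103241139 (plus strand, across an intron) for *Hnrnpa1*, at chr9:123690118-123690192 (minus) for *Gm10052* and at chr6:6352193-6352267 (minus) for *Gm8652*, and capitals mark bases that differ from *Hnrnpa1*.
Hnrnpa1: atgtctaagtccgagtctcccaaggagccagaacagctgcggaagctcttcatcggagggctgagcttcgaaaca
Gm10052: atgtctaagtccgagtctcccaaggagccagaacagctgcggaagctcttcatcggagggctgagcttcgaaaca
Gm8652: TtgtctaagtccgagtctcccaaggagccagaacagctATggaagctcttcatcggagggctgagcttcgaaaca
*Gm10052* is identical over this stretch and *Gm8652* differs at 3 bases. *Gm10052* read 2, 0 and 2 in KO and 1, 1 and 2 in WT. *Gm8652* read 3, 1 and 5 against 0, 5 and 3. *Gm6296*, the other copy in the table, was less alike over this stretch and is not shown. It read 10, 10 and 14 against 6, 16 and 16. The 3 copies of *Hnrnpa1* in the table together read 15, 11 and 21 against 7, 22 and 21, next to the 170 to 211 of *Hnrnpa1* itself. The 13 pseudogene copies of *Hnrnpa3* in the table summed to 55, 42 and 50 against 42, 58 and 72, and the 2 of *Hnrnpk* to 25, 24 and 30 against 31, 29 and 28. In each of these sums the KO and WT hearts overlapped.

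**Figure D4:**
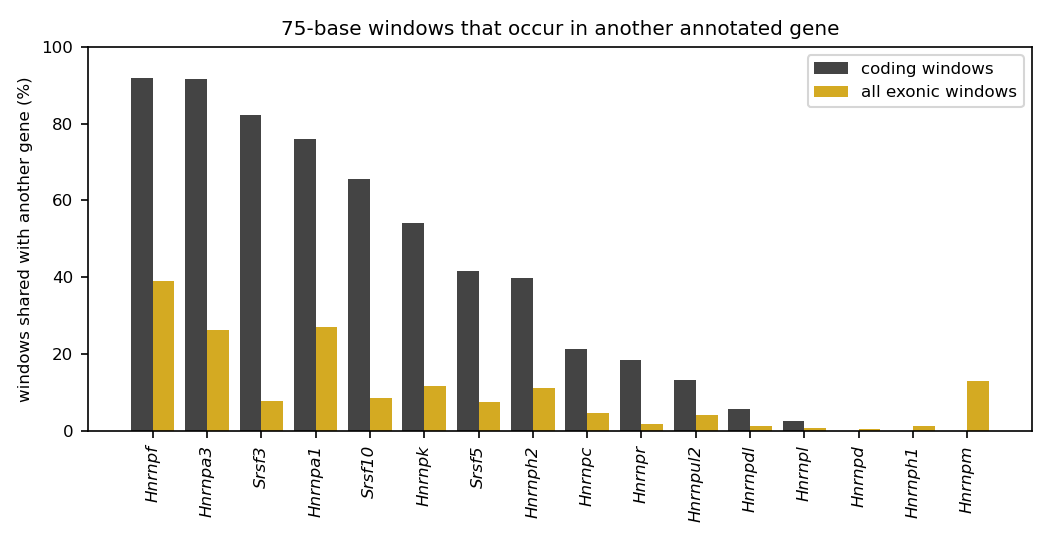
Share of 75-base windows that occur in another annotated gene (y axis, percent) for the 16 members with any such window (x axis), with dark bars for coding windows and yellow bars for all exonic windows. Coding windows of *Hnrnpf* and *Hnrnpa3* reach 91.9% and 91.7%, while no member exceeds 39% over all exonic windows.

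The genes that act with the members were read from the same fit, in lists of 107 genes of which 106 were in the table and 103 tested. None was called (limma, adjusted p below 0.05). At an unadjusted p below 0.05, 5 were higher and 3 lower (7.77% of the 103), beside 2.94% and 2.80% of all tested genes (5.74% together). The groups did not overlap in 5 genes with KO higher (*Clk4*, *Jun*, *Scaf4*, *Smg8* and *Tra2a*) and in 4 with KO lower (*Dhx34*, *Grsf1*, *Luc7l2* and *Msi2*), beside 4.64% and 4.44% of all tested genes. The 13 kinases, phosphatase and import genes of SR proteins had a median log2 fold change of -0.04, with 3 above and 10 below 0. *Srpk2*, an SR protein kinase, had their smallest p and read 727, 689 and 707 in KO and 774, 785 and 717 in WT, a log2 fold change of -0.10 (95% interval -0.23 to 0.03). *Clk3*, a nuclear kinase of SR proteins, came next and read 167, 130 and 146 against 145, 126 and 126 (log2 fold change 0.15, 95% interval -0.08 to 0.38). Neither reached an unadjusted p of 0.05, at 0.117 and 0.185 in limma.

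Of the 23 SR-related and speckle genes 10 lay above and 13 below 0, at a median of -0.00. *Tra2a*, a splicing activator with arginine and serine rich tails, was the one with an unadjusted p below 0.05. It read 185, 176 and 176 in KO and 146, 158 and 162 in WT, with a log2 fold change of 0.20 (95% interval 0.01 to 0.40, limma adjusted p = 0.851). The 26 hnRNP relatives with other names had a median of 0.02, with 14 above and 12 below 0. *Grsf1*, an F/H relative of mitochondrial RNA granules, read 637, 630 and 645 against 694, 676 and 676, and *Rbmxl1* read 33, 35 and 30 against 24, 20 and 34. Their limma p values were 0.112 and 0.140. The 14 spliceosome subunits that contact SR proteins had a median of 0.04, and their smallest p values were 0.153 for *Ddx46* (log2 fold change 0.09) and 0.195 for *Sf3a1* (-0.10). In none of these lists was a gene past the adjusted threshold.

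Among 17 factors of nonsense-mediated decay, which removes the decay transcripts of the members, 12 lay above and 5 below 0 with a median of 0.04. *Smg8*, which regulates the SMG1 kinase, read 68, 78 and 71 in KO and 53, 58 and 62 in WT (log2 fold change 0.32, limma adjusted p = 0.851). *Dhx34*, a helicase of the pathway, read 44, 42 and 39 against 59, 50 and 62 (-0.44, limma adjusted p = 0.807). *Magohb*, of the exon junction complex, read 23, 26 and 28 against 14, 23 and 16 (0.54, limma adjusted p = 0.851). None of the 3 passed the adjustment. *Malat1*, the long non-coding RNA of speckles where SR proteins are stored, read 4677, 4912 and 5046 in KO and 6248, 5450 and 4847 in WT (-0.17, limma adjusted p = 0.851), with an overlap at WT 3, while *Neat1* had -0.02. The *Malat1* values also fell as the estimated size factor rose, from 0.795 in WT 1 to 1.149 in KO 1. The part of library depth in them was not tested.

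Heat and immediate early genes were included because tissue handling moves them and heat acts on SR proteins. *Jun* read 332, 356 and 315 in KO and 284, 272 and 247 in WT (log2 fold change 0.32, limma adjusted p = 0.518). *Fos* read 44, 19 and 54 against 10, 23 and 15 (1.18, limma adjusted p = 0.689). *Hsph1* read 376, 329 and 328 against 365, 421 and 696 (-0.47, limma adjusted p = 0.762), and WT 3 had the highest value. The 8 tested genes of this list had a median of 0.15, and their part in the levels of the members was not tested.

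**Figure D5:**
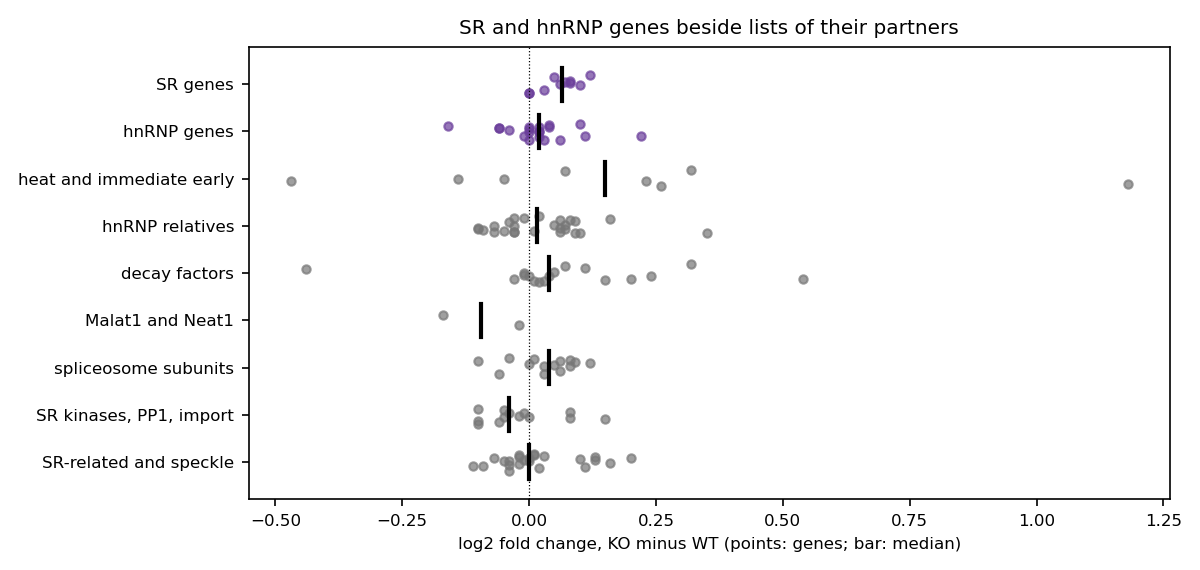
Log2 fold change of KO over WT (x axis) for SR genes, hnRNP genes and each list of genes that act with them (y axis), with 1 point per tested gene and a bar at the median. SR and hnRNP genes lie between -0.16 and 0.22, and the widest spread is that of the heat and immediate early genes, from -0.47 to 1.18.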

How the data were processed

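The authors trimmed reads with Trimmomatic 0.39, aligned them to GRCm38 with STAR 2.6.1d, removed duplicates with Picard 2.21.1, counted exonic reads by strand with featureCounts 1.6.5 and normalised with DESeq2 1.18.1, as the submitters' processing notes and the study's methods give it. Each deposited score is thus a read count divided by the size factor of its library and rounded. Raw counts were not used here. From it log2(value + 1) was fitted with limma 3.58.1 (lmFit and eBayes with a mean-variance trend, R 4.3.3, tested on simulated data) over 13753 genes with a mean of at least 10 (8023 fell below), KO against WT without covariates, as a two-sided test, and p-values were adjusted by Benjamini-Hochberg and called below 0.05. An exact permutation test of 3 against 3 hearts cannot go below 0.1. The labels do not say how the animals were related or whether replicate numbers pair hearts, so p-values measure the spread between these hearts. Library reads were estimated from the spacing of low values.

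Members and lists were chosen with earlier results of these data known. Values in full are given for members with an unadjusted p below 0.05 or separate groups, the 3 largest and 3 smallest log2 fold changes and the 3 highest and 3 lowest means of each family, and for other members in brief. In partner lists, genes with an unadjusted p below 0.05 are named, or the 2 with the smallest p. Genes outside these rules (*Neat1*, and *Clk4*, *Scaf4*, *Luc7l2* and *Msi2* for separate groups) were named after their values were seen. Exons and sequences came from GENCODE M21, which matched all 31 members by identifier, 22 at the same position. The annotation version used by the authors is not given in the sources used here. Windows of 75 bases were matched exactly, on both strands, and for genes overlapping the member in sense only. No protein sequences were used. Alternatives were limma-voom, other scalings, filters and pseudocount, no trend, a stricter threshold, a replicate block and each heart left out in turn.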

Additional observations from a re-analysis of the deposited data

How the results depend on the processing

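The count of 0 members called held under all alternatives run, with a lowest adjusted p of 0.654 for any member. Genes called over the whole table numbered 4, and 2 with at least 10 in every library, 1 without the mean-variance trend, 2 at an adjusted p below 0.01, and between 2 (without KO 2 or WT 1) and 32 (without KO 1) with a heart left out, 7 of them without WT 3. Members with an unadjusted p below 0.05 numbered 1, and 0 without the trend and 0 to 1 with a heart left out. Of the 13 tested members given in full, the log2 fold change changed sign with a heart left out for *Srsf3* (-0.02 to 0.14), *Hnrnpu* (-0.03 to 0.07), *Hnrnpk* (-0.03 to 0.07), *Hnrnpa2b1* (-0.10 to 0.00) and *Srsf5* (-0.00 to 0.06), each within its interval. Members above 0 numbered 23, and 26 under total scaling and limma-voom, which moved the median of all genes to 0.02 and 0.03, and 16 to 26 with a heart left out, so members not given in full also changed sign. Same-numbered KO and WT hearts did not deviate together (correlations 0.05, -0.07 and -0.03), and with a replicate block 4 genes and 0 members were called, 1 member had an unadjusted p below 0.05 and 23 lay above 0. Depth limits *Srsf12*, and the levels of members with many shared windows are uncertain, since reads with more than 1 location were discarded.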
